A study of Oryza sativa with 19 samples.

Results

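The panicle of the rice variety Nipponbare (NB, a japonica variety) was compared with its root on 7 of the 19 arrays of the study. The members were the arrays that the labels assign to NB panicle and NB root. There were 2 panicle and 2 root arrays of the design called S1, and 1 panicle and 2 root arrays of the design called S2. S1 was the main comparison and S2, with its single panicle array, served as support. The fits also held the arrays of NB shoot, NB callus and IR64 shoot, and IR64 is an indica variety. Each array was self-hybridised, so that its Cy3 and Cy5 channels both held labelled RNA of the same sample.

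Panicles came from plants grown in field soil under conditions that were not controlled, and the study's methods place them at the late-boot stage, when the panicle is still enclosed by the leaf sheath. Roots came from seedlings of 10 days raised in diluted Hyponex in a growth chamber with 16 h of light and 8 h of dark at 28 °C. Both groups were unmutated, untreated Nipponbare plants, and for both the labels give the RNeasy Midi Kit as the extraction method. Organ, age and growth environment therefore differed together and cannot be told apart in any value below. Per the methods, RNA of several plants was pooled and each sample was hybridised again, so the p-values may measure only the spread between hybridisations of 1 pooled RNA. In whole organs, a smaller share of a cell type and less RNA per cell cannot be told apart either.

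As background, a boot-stage rice panicle carries spikelets whose stamens and pistils are still forming, and its anthers are the site of meiosis and pollen development. The seedling root takes up water and mineral ions and shields the vascular tissue behind suberised cell layers. Organs of this kind are known to differ in transcription factors of floral identity, in pollen wall genes, in ion transporters and in many enzymes of secondary metabolism. Lists of such genes, and markers of both organs, could not be applied here, because none of the probe, clone or locus names of the arrays (0 matches) occurred in the reference table of gene names. The organ labels were therefore not checked against markers, and the sequences of the probes were not used here. Probes are named as the array names them. In these names R followed by a number gives the chromosome, a second number gives the locus along it, and F or R gives the strand.

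The arrays measured 42034 non-control probes on each design. Detection on an array required a signal well above the background in both channels. On S1 the panicle arrays detected 82.9% and 84.5% of the probes and the root arrays 84.3% and 83.3%. On S2 the panicle array detected 82.7%, against 83.5% and 68.6% on the root arrays. The second S2 root array was also dim, with a median background-subtracted signal of 47.9, against 126.0 on the first and 134.5 on the S2 panicle array, so counts on S2 are given with and without it. The replicates of S1 differed by a mean SD of 0.28 (log2, n = 2) in panicle and 0.32 (log2, n = 2) in root. On S2 the mean SD of root was 0.54 (log2, n = 2). Levels below are log2 signals, scaled so that the median probe of each array and channel lies at 1000 and limited to a cap at 16.61. A value at the cap is a lower limit, and values at the cap have no order among themselves.

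The first question was how many transcripts differed between panicle and root. On S1, 36868 probes were tested, and 5045 of them (13.7%) were called with limma at an adjusted p below 0.05. Of these, 2831 (7.68% of the probes tested) were higher in panicle and 2214 (6.01%) were lower in panicle. The median difference of the called probes was 2.15 on the log2 scale (4.42-fold) among the higher ones and -2.21 (4.63-fold) among the lower ones, whereas over all tested probes it was -0.02. With the lower bound in place of the fold where the dimmer organ was not well above background, 545 of the higher and 511 of the lower probes reached 10-fold, and 62 and 67 reached 100-fold. The panicle and root arrays did not overlap at any of the 5045 called probes, nor at 19711 (53.5%) of all 36868 tested probes. Each of the 2 scan sessions held 1 panicle and 1 root array of S1, with the same replicate number. Since the arrays did not overlap at any called probe, within a session the sign was fixed wherever both arrays had a value. Both values were present for all 2831 higher and 2210 of the 2214 lower probes in the session of replicate 1. In that of replicate 2 they were present for 2829 and all 2214, and the rest lacked a spot dropped as an outlier. Leaving out 1 array gave 3208 calls without panicle replicate 1, 2961 without panicle replicate 2, 3186 without root replicate 1 and 3054 without root replicate 2. With scan date as a block, 8543 probes were called. The terms for the scan sessions leave little information on the spread in that fit, on S1 and on S2.

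**Figure D1:**
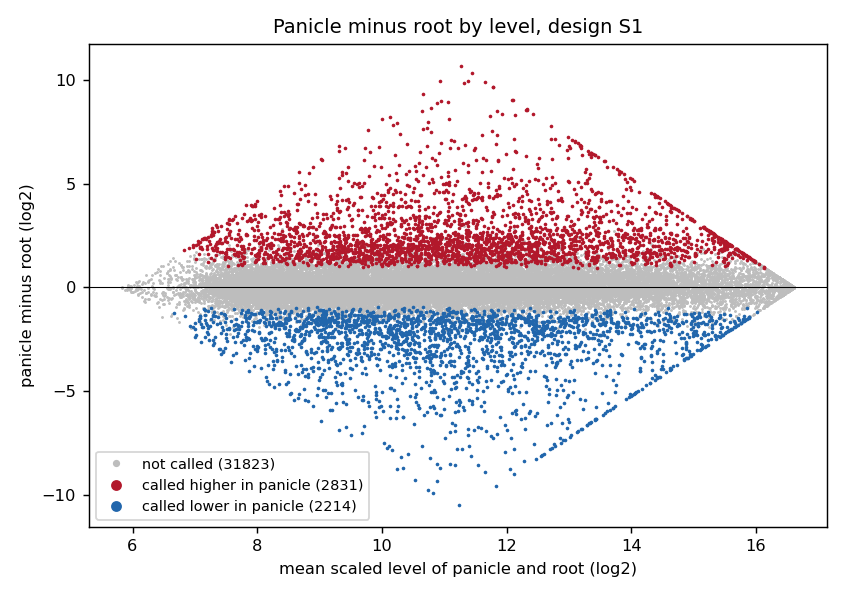
Difference between NB panicle and NB root on S1 (vertical axis, log2, panicle minus root) against the mean level of both organs (horizontal axis, scaled log2 signal). Each point is a probe, with 2831 called higher in panicle, 2214 called lower in panicle and the other tested probes in grey, and the straight upper edge at right is formed by probes at the cap.

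On S2, 1241 of 36114 tested probes (3.44%) were called, of which 536 (1.48%) were higher and 705 (1.95%) lower in panicle. The median called difference was larger than on S1, at 4.04 among the higher and -4.48 among the lower probes on the log2 scale, and the smallest called difference was 2.12. Without root replicate 2, the dim array, 443 probes were called, of which 206 were higher and 237 lower in panicle. Without root replicate 1 the calls numbered 254 higher and 482 lower. Higher calls were the more frequent with the replicate block (2125 higher and 1841 lower) and with scan date as a block (1435 and 1256), so the direction of this split turned with the fit. The spread of the panicle on S2 was taken from the other groups. A fit on the panicle and root arrays alone called 0 probes on S2 by limma, with 3129 probes at an unadjusted p below 0.05.

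The probes with the largest differences were bright in an organ and near background in the other. R01-01300F_C, a probe common to the transcripts of a cDNA locus on chromosome 1, had 15.64 and 16.21 on the panicle arrays, against 5.98 and 5.93 on the root arrays (S1, log2). Neither root array had it well above background, and its panicle level was at least 409-fold higher (limma adjusted p = 1.26e-06). Of the 2 other NB tissues on S1, shoot averaged 6.43 and callus 5.74 for this probe, both close to the root level. R05-E3TU-01164F, a transcription unit of chromosome 5 known by its 3' end, showed the same order with 15.01 and 15.62 in panicle and 6.03 and 5.96 in root, at least 269-fold higher in panicle (limma adjusted p = 4.64e-06). R06-00275R_C on chromosome 6 had 15.57 and 15.28 in panicle against 6.57 and 6.36 in root, at least 289-fold higher in panicle (limma adjusted p = 1.02e-06). In both cases shoot and callus lay between 5.76 and 6.95 as group means. The 3'-end units numbered on either side of R05-E3TU-01164F went the other way and were not called. R05-E3TU-01163F differed by -1.28 (log2) on S1, and R05-E3TU-01165F by -2.05 on S2, where both root arrays were at the cap. R07-00022R_C on chromosome 7 was bright in panicle only among the 4 NB tissues, with 15.07 and 15.97 against 6.23 and 6.96 in root and means of 6.56 in shoot and 5.72 in callus.

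Other probes of this kind were bright in a further tissue. R03-00398F_C on chromosome 3 was at the cap on both panicle arrays, against 6.42 and 6.97 on the root arrays, and averaged 14.65 in callus and 6.76 in shoot. R06-00509R_C on chromosome 6 was also at the cap on both panicle arrays, against 6.93 and 6.99 in root, and callus averaged 10.59. E5_11938, a probe of the locus R01-00525R, had 15.16 and 15.05 in panicle against 5.99 and 6.93 in root, and shoot averaged 11.64. AK109434, the probe of a full-length cDNA, had 16.12 and 16.37 in panicle against 6.17 and 6.63 in root, at least 512-fold higher in panicle (limma adjusted p = 1.86e-06). This cDNA averaged 15.55 in shoot and 13.57 in callus, so root was the dim tissue of the 4.

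Several of these loci were also read by different probes on S2. E5_12375, a probe of the locus R02-00520F on chromosome 2, had 16.34 and 16.36 on the panicle arrays against 6.68 and 6.16 on the root arrays of S1. The 5 S2 probes of this locus were all called higher in panicle. The log2 difference was 6.04 for E5_03448, and R02-00520F_C, not well above background in root, was at least 332-fold higher in panicle (limma adjusted p = 0.0023). E5_11136 of the locus R09-00435F on chromosome 9 had 15.01 and 15.66 in panicle against 6.21 and 6.67 in root on S1, and the S2 probe E5_11557 had 15.99 in panicle against 7.57 and 8.47 in root (limma adjusted p = 0.0028). The locus R01-00525R read 15.41 in panicle against 9.48 and 9.75 in root through its S2 probe E5_12725 (limma adjusted p = 0.0022). The locus R03-00398F went differently: its S2 probe E5_01335 had 11.67 in panicle against 11.69 and 11.51 in root, with a log2 difference of 0.07 ± 0.62 (SE).

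Saturated probes were kept out of the ranking of the largest differences, but among the probes detected in panicle and not in root 2 more loci stood at the cap. R11-00399F_C on chromosome 11 was at the cap on both panicle arrays, against 6.03 and 5.84 on the root arrays, at least 658-fold higher in panicle (limma adjusted p = 1.02e-06). E5_05740 of the locus R01-01346R was at the cap on both panicle arrays, against 6.22 and 6.31 in root. On S2 the panicle array was at the cap for all 7 probes of R01-01346R, so that these differences are lower limits. The log2 difference on S2 was 3.76 ± 0.84 (SE, limma adjusted p = 0.0635) for R01-01346R_C, the probe common to the locus, and E5_07996 was at least 502-fold higher in panicle (limma adjusted p = 0.0015).

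Among the probes lower in panicle, R07-00011F_C on chromosome 7 had the largest fitted difference of those not kept out as saturated. It had 6.03 and 5.97 on the panicle arrays and 16.35 and 16.61 on the root arrays, where the second root value was at the cap, and was at least 648-fold lower in panicle (limma adjusted p = 1.02e-06). Shoot averaged 6.49 and callus 5.75 for this locus, so root was the only bright NB tissue on S1. R10-E3TU-00469R, a transcription unit of chromosome 10 known by its 3' end, had 5.95 and 5.78 in panicle against 15.57 and 15.99 in root, at least 399.9-fold lower in panicle (limma adjusted p = 1.32e-06), and shoot and callus averaged 6.46 and 5.80. A unit numbered 2 below it on the same strand and measured on S2, R10-E3TU-00467R, had 5.90 in panicle against 15.45 and 16.17 in root (limma adjusted p = 0.0022).

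R10-00016R_C on chromosome 10 had 5.92 and 5.80 in panicle against 15.27 and 15.94 in root, at least 354-fold lower in panicle, and callus, the brightest of the other tissues, averaged 8.998. R04-00035R_C on chromosome 4 had 6.47 and 5.98 in panicle against 15.40 and 15.70 in root, and callus averaged 9.26. R12-00233F_C on chromosome 12 had 5.88 on both panicle arrays against 15.07 and 15.29 in root, and R01-01403R_C on chromosome 1 had 5.87 and 5.85 against 14.51 and 14.74. These last loci were intermediate in shoot, with means of 10.46 and 11.31. R12-E3TU-00396R was well above background in panicle too, at 7.61 and 7.76 against 16.34 and 16.52 in root, a log2 difference of -8.75 ± 0.35 (SE, limma adjusted p = 1.12e-06). The unit with the next number, R12-E3TU-00397R, was not well above background in panicle or root and was not tested. R07-E3TU-00082F had the widest root spread of the group, with 5.96 and 6.0 in panicle against 14.05 and 15.32 in root. R12-E3TU-00739R had 7.29 and 6.82 in panicle and was at the cap on both root arrays, at least 689.7-fold lower in panicle, a larger bound than that of R07-00011F_C. The remaining probe among the 10 belonged to a predicted gene model and had 7.30 and 7.12 in panicle against 15.84 and 16.35 in root.

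**Figure D2:**
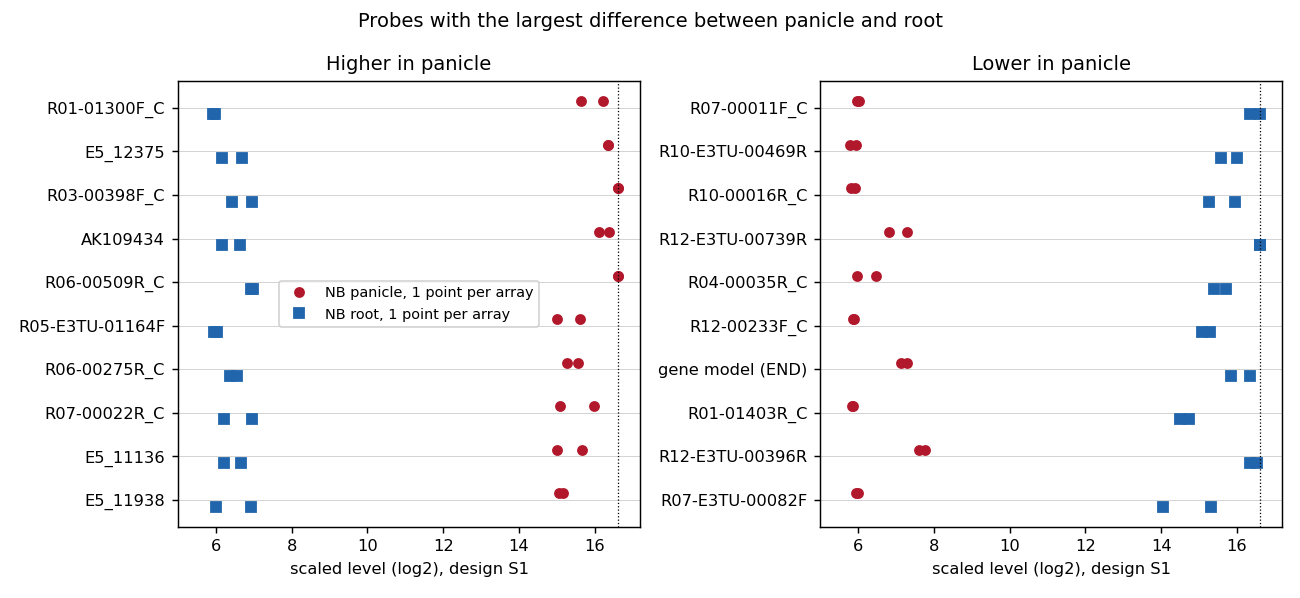
Level of the 10 probes with the largest difference in each direction on S1 (horizontal axis, scaled log2 signal), with circles for the 2 NB panicle arrays and squares for the 2 NB root arrays. The dotted line marks the cap at 16.61, and in every row the arrays of the dimmer organ lie below 8 while those of the brighter organ lie at 14.05 or above.

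Most called probes differed by far less, and 1610 of the higher and 1286 of the lower calls reached 4-fold in the fit. The calls named as nearest to 2-fold included R03-E3TU-00418F, with 8.28 and 8.36 in panicle against 9.29 and 9.35 in root (limma adjusted p = 0.0417). Another was R01-00839R_C, with 12.005 and 11.74 in panicle against 12.78 and 12.96 in root (limma adjusted p = 0.0475). The 3 cases on the higher side were probes of gene models, 1 of which had 12.42 and 12.57 in panicle against 11.62 and 11.37 in root. All 6 probes near 2-fold lost their call in at least 8 of the other settings and left-out arrays that were tried.

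Detection gave a second view of the same arrays. On S1, 221 probes were detected on both panicle arrays and in neither channel of the root arrays, and 173 on both root arrays and in neither channel of the panicle arrays. Most were dim: the lower bound of the fold had a median of 2.94 among the panicle probes and 3.82 among the root probes, and it exceeded 10 for 46 and 50. Of the 221 panicle probes, 58 were not detected in NB shoot or callus either, and of the 173 root probes 42 were not. Callus alone of these other tissues shared 74 of the panicle probes and 64 of the root probes, and shoot alone shared 31 and 15. The callus arrays of S1 detected 88.3% and 81.0% of all probes, however, and the shoot arrays 81.6% and 73.5%. A signal in 1 channel of 1 array sufficed for sharing, so these counts do not compare the tissues on equal terms. Both counts depended on the detection rule. With signals only required to differ from the background, 34 probes were left for panicle and 36 for root. R04-E3TU-00551R, among the 3 root probes with the largest bound, had 7.49 and 7.04 in panicle against 15.72 and 15.94 in root, at least 374-fold lower in panicle.

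The 1028 probes that were printed on both designs, all of full-length cDNAs with AK accessions, allowed the same probe to be read on arrays that the S1 comparison did not use. The source names are shared between the designs, so the RNA may be the same. Of these probes, 76 were called higher and 37 lower in panicle on S1. On S2 the difference had the same sign for all 76 and all 37, and 10 and 6 of them were called. Without the dim S2 root array the sign was again the same for all 76 and all 37, with medians of 1.70 and -1.86 on the log2 scale. The median difference on the log2 scale was 2.0 on S1 and 1.5 on S2 for the higher group, and -1.74 on S1 and -1.96 on S2 for the lower group. Over all 1028 probes the median was 0.00 on S1 and -0.16 on S2, and 696 had the same sign on both. A difference of 0 on either design, as arises at the cap, was not counted as a shared sign. The others are therefore not all probes of opposite sign. These cDNAs were bright, and 113 of them were at the cap on all 4 panicle and root arrays of S1, where no difference could be measured.

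AK109434 had 16.18 on the S2 panicle array against 6.95 and 7.58 on the S2 root arrays (limma adjusted p = 0.0022), beside the S1 values given above. AK061740 was at the cap in panicle on all 3 arrays, with 9.68 and 9.34 in root on S1 and 9.80 and 8.97 on S2. AK059231 was at the cap in panicle as well, with 9.86 and 9.70 in root on S1 and 8.60 and 8.63 on S2. Shoot averaged 16.60 for AK061740 and 11.43 for AK059231 on S1. For AK060726 and AK058313 panicle, shoot and callus were all at the cap on S1, whereas root averaged 11.41 ± 0.15 and 12.23 ± 0.11 (SD, n = 2 each), so these cDNAs were set apart by a lower level in root.

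Among the named cDNAs lower in panicle, differences with root at the cap are lower limits. AK111617 had 13.05 and 13.32 in panicle on S1, and root was at the cap on both arrays (limma adjusted p = 8.22e-05). On S2 it had 13.44 in panicle and root was again at the cap on both arrays (limma adjusted p = 0.0152). AK105219 behaved alike, with 13.24 and 13.19 in panicle on S1 and 13.15 on S2 against root at the cap on all 4 arrays. AK100531 and AK106157 were called on both designs, with log2 differences of -2.73 and -2.56 on S1 and -2.87 and -2.81 on S2. The second root array of each design was at the cap for AK100531, so its differences are lower limits. AK067289 was called on S1 (-2.44 ± 0.36, SE), while on S2 its difference of -3.0 ± 0.76 (SE) had a limma adjusted p of 0.0959. The S2 calls of the 4 named probes lower in panicle were lost when either S2 root array was left out.

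**Figure D3:**
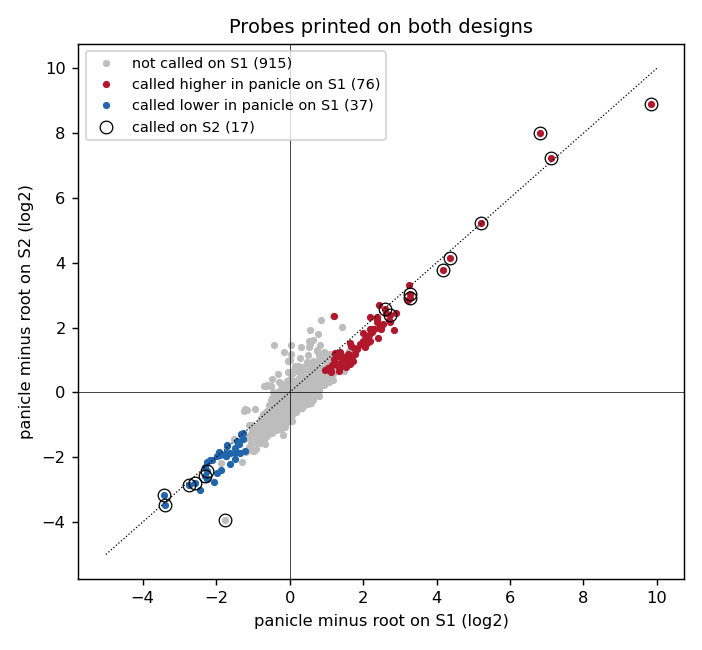
Panicle minus root (log2) on S2 (vertical axis) against the same on S1 (horizontal axis) for the 1028 probes printed on both designs, coloured by their call on S1, with rings around those called on S2. All 76 probes called higher in panicle on S1 lie above 0 on S2 and all 37 called lower lie below 0, and the dotted line marks equal differences.

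Different probes of the same cDNA locus gave a further comparison of the designs. Of 1507 cDNA loci with a probe called higher in panicle on S1, 446 had a tested probe on S2. The median S2 difference of the locus had the same sign at 405 of them (90.8%), and 73 had an S2 probe called higher. Of 1013 loci called lower, 284 had an S2 probe, 254 (89.4%) had the same sign and 75 had one called lower. Without the dim S2 root array the sign was the same at 381 of the 446 and at 261 of the 284 loci. Over all 3510 loci tested on both designs, 66.0% had the same sign. At 1 locus an S2 probe was called the opposite way. R04-00611R_C on chromosome 4 had 12.31 and 12.17 in panicle against 13.73 and 13.91 in root on S1 (limma adjusted p = 0.0118), whereas the S2 probe E5_11879 had 12.57 in panicle against 8.48 and 8.92 in root (limma adjusted p = 0.0102). The S2 probes E5_11066 and E5_12653 of this locus were also called higher in panicle.

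Within S1, 338 of the 2532 cDNA loci with several tested probes had more than 1 probe called. At 202 of them these were all higher and at 133 all lower in panicle, and 3 loci held calls in both directions. On S2 no such locus was found among 2511 (0 by limma), where calls were fewer. The largest spread was at R02-00783F on chromosome 2. Its probe E5_07694 had 13.15 and 13.28 in panicle against 16.58 and 16.33 in root (log2 difference -3.24 ± 0.34, SE, limma adjusted p = 0.00017), while R02-00783F_C had 14.24 and 13.91 against 10.37 and 9.87 (3.95 ± 0.79, SE, limma adjusted p = 0.0081). E5_08367 was higher in panicle as well (3.12 ± 0.62, SE). In shoot and callus these 3 probes averaged between 10.03 and 11.07. The S2 probes E5_00373 and E5_00943 of this locus differed by 1.67 and 0.61 (log2), higher in panicle, and were not called.

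At R05-00093R on chromosome 5, E5_04609 had 13.50 and 13.38 in panicle against 11.04 and 10.92 in root (limma adjusted p = 0.000417). E5_04978 of the same locus was not well above background in panicle, with 5.87 and 5.72 against 7.99 and 8.82 in root (limma adjusted p = 0.0025), and its call was lost with normexp background correction, as was that of E5_05190. The common probe R05-00093R_C and E5_00593 were not well above background in panicle, root, shoot or callus and were not tested. The only S2 probe of the locus tested, E5_04777, differed by -0.20 ± 0.53 (SE, log2). At R12-00506F on chromosome 12 a probe specific to 1 transcript variant, R12-00506F_S1, had 13.40 and 12.46 in panicle against 11.83 and 11.06 in root (limma adjusted p = 0.0341). The common probe R12-00506F_C ran the other way, with 9.22 and 9.06 in panicle against 10.46 and 10.75 in root (limma adjusted p = 0.0107). The call of the variant probe was lost under scaling to the 75th percentile and under quantile normalization.

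The share of called probes differed between kinds of probe, which the array names by what they were designed on. Of the probes common to the transcripts of a cDNA locus, 12.3% were called higher and 8.14% lower in panicle on S1, against 7.68% and 6.01% over all probes. For the cDNA locus probes marked E5 the shares were 10.8% and 7.46%, and for transcription units known by their 3' end 9.21% and 9.23%. Probes specific to a transcript variant had 4.36% and 3.39%. Probes of predicted gene models had 4.18% and 4.27% where marked END and 2.43% and 2.89% where marked CDS, and the shares of the CDS probes were the lowest of all kinds. Put together, 18.0% of 22687 cDNA-named and 6.73% of 14181 gene-model probes were called in either direction.

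The kinds also differed in brightness, which was tried as a split after the values were seen. Among probes with a mean log2 level of 8 to 10, 15.4% of the cDNA-named and 5.43% of the gene-model probes were called, and at 12 to 14 19.4% and 13.04%. The split by direction differed with the kind. Higher calls outnumbered lower ones among cDNA-named probes (2375 and 1716), and lower calls were the more frequent among gene-model probes (456 higher and 498 lower). On S2 lower calls were the more frequent in both, with 472 higher and 547 lower among cDNA-named and 64 higher and 158 lower among gene-model probes, and the difference between the kinds was not tested. The median difference of all tested probes was 0.04 for the cDNA-named and -0.10 for the gene-model probes, on the log2 scale.

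**Figure D4:**
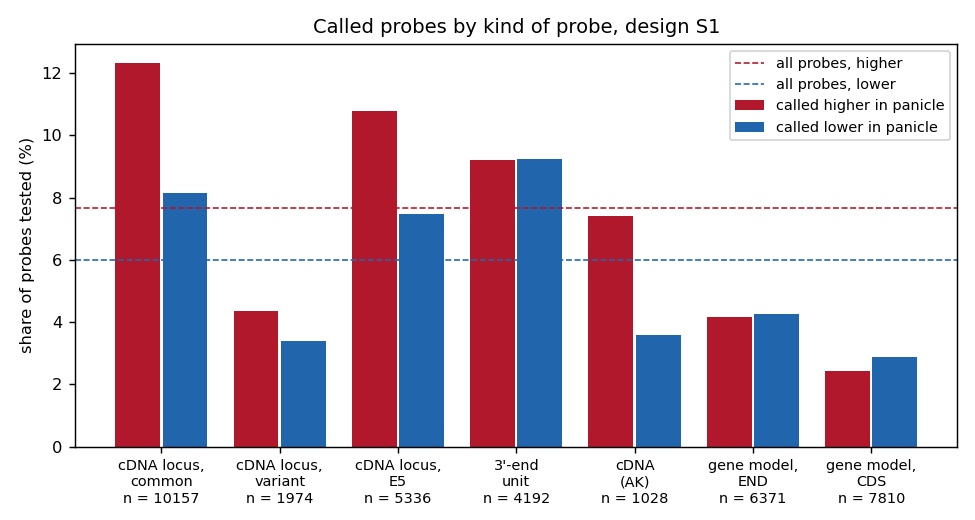
Share of the tested S1 probes (vertical axis, percent) called higher in panicle (left bar of each pair) or lower in panicle (right bar) for each kind of probe, with the number tested under each pair. Dashed lines mark the shares over all probes (7.68% higher, 6.01% lower), and both bars of the common and E5 probes of cDNA loci and of the 3'-end units stand above their line.

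Part of the clones behind the AK and variant-specific probes could be assigned to 3 cDNA libraries by their names. Of 684 tested S1 probes whose clone came from the library of panicle 1 day after flowering, 41 (5.99%) were called higher and 17 (2.49%) lower in panicle. Of 819 probes of green shoot clones 44 (5.37%) were higher and 27 (3.30%) lower, and of 512 probes of callus clones 11 (2.15%) were higher and 20 (3.91%) lower. Over all 3002 AK and variant-specific probes, with those of clones not assigned to a library, the shares were 5.396% and 3.464%. On the arrays 3 clones are short cDNAs that the study lists because sequence for a protein domain of the locus appeared to be deleted from the clone. The study proposes that such clones might have been rearranged in E. coli. AK059443 belongs to a locus with a B-box domain, a zinc-binding fold of plant transcription regulators. It had 14.69 and 14.48 in panicle against 13.61 on both root arrays, and the log2 difference of 0.98 ± 0.29 (SE) had a limma adjusted p of 0.0569. The probes of AK058349, from a locus with an AP2 domain, which binds DNA in a plant family of transcription factors, and AK058489, from a locus with a domain of mitochondrial carriers, were at the cap on all 4 arrays of S1.

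Called probes with a chromosome in their name were found on all 12 chromosomes. The share called higher in panicle ran from 9.14% on chromosome 8 to 12.2% on chromosome 4, against 10.6% over all such probes, and the share called lower from 6.74% on chromosome 4 to 8.81% on chromosome 1, against 7.75%. Of the 1507 cDNA loci called higher, 276 (18.3%) lay beside another such locus, with the next number on the same strand, against 13.97% of all 11991 tested loci. They formed 130 runs of 2 or more loci. Of the 1013 loci called lower, 145 (14.3%) lay beside another, against 9.37% of all tested loci, and formed 68 runs. Most were pairs (118 and 61). Names do not give the distance between loci, and neighbours on the array's list can share sequence, which was not tested.

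The longest run held 5 loci of chromosome 3, R03-00935F to R03-00939F. In it R03-00939F_C had 12.59 and 12.94 in panicle against 6.17 and 5.95 in root, at least 45.7-fold higher in panicle (limma adjusted p = 2.88e-06), and R03-00936F_C was at the cap in panicle against 14.70 and 14.07 in root. R03-00937F_C differed least, by 1.09 ± 0.28 (SE, log2), and lost its call when any of the 4 arrays was left out. On S2 no probe of this run was called, though the 3 tested differed by 1.19 to 1.86 in the same direction. The 4 loci R12-00267F to R12-00270F of chromosome 12 were higher in panicle by 1.77, 2.84, 3.36 and 2.01 on the log2 scale, of which the last is a lower limit because R12-00270F_C was at the cap on both panicle arrays. Of these, R12-00268F_C and R12-00270F_C were at the cap in shoot, and R12-00267F_C and R12-00269F_C averaged 7.91 and 7.99 there. In the run R11-00311R to R11-00314R, R11-00311R_C had 13.30 and 13.42 in panicle against 7.51 and 7.97 in root, and the other called probes differed by 1.01 to 1.87.

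In the run R07-00790F to R07-00793F on chromosome 7 all loci were lower in panicle. R07-00793F_C had 9.61 on both panicle arrays against 15.85 and 16.46 in root (limma adjusted p = 4.18e-06), and R07-00791F_C had 6.68 and 6.28 against 11.65 and 12.42, at least 29.7-fold lower in panicle. The S2 probe R07-00792F_C was called too, with 8.33 in panicle against 13.85 and 14.97 in root. In the run R03-01045F to R03-01048F the called S1 probes differed by -1.59 to -3.34. Callus was the brightest tissue at R03-01048F, where its means over the 6 S1 probes ran from 15.44 (E5_08024) to 15.92 (E5_09084), against root means of 12.37 (E5_08024) to 12.93 (E5_09084). At R03-01047F 4 of the 6 tested S1 probes were not called, with differences of -0.05 to -0.27.

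When loci called on either design were counted, a choice made after the values were seen, the longest run was R08-00158F to R08-00163F on chromosome 8, with 6 loci lower in panicle. E5_06750 of R08-00160F had 9.66 and 9.06 in panicle against 15.67 and 15.45 in root on S1, and R08-00160F_C had 8.03 in panicle against 14.18 and 14.74 in root on S2. R08-00163F_C, on S2, had 6.71 in panicle against 13.63 and 14.73 in root (limma adjusted p = 0.0031). R08-00159F_C had 8.53 and 9.07 in panicle against 11.79 and 11.61 in root on S1, but the S2 probe E5_08124 of that locus differed by -0.30 ± 0.53 (SE). The loci on either side were not called: R08-00157F_C had a difference of 1.01 ± 0.58 (SE) on S2 and R08-00164F_C one of -0.07 ± 0.27 (SE) on S1. Among transcription units known by their 3' end the longest run held 3 units, R12-E3TU-00739R to R12-E3TU-00741R, all at the cap on both root arrays, with panicle values of 7.29 and 6.82 for the first, 10.63 and 10.62 for the second and 11.30 and 11.74 for the third.

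**Figure D5:**
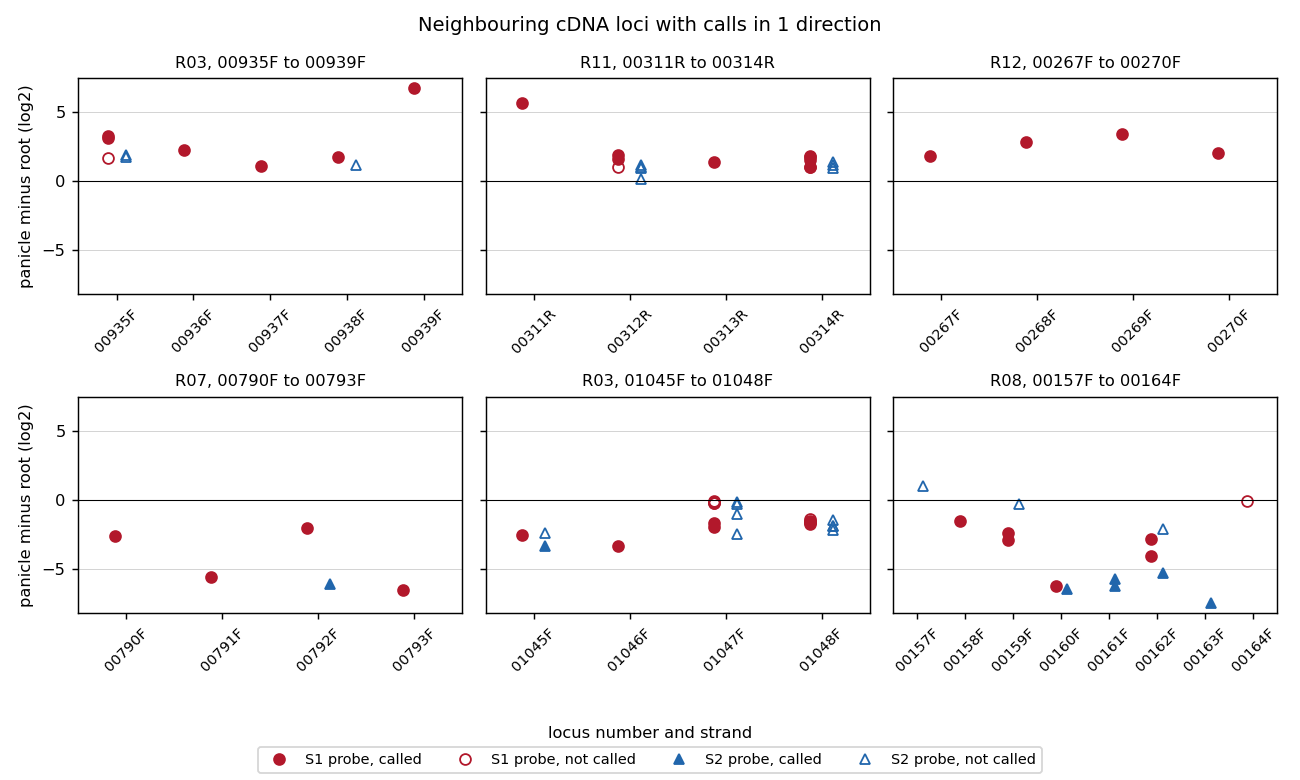
Panicle minus root (vertical axis, log2) for each tested probe of neighbouring cDNA loci (horizontal axis, locus number and strand), with circles for S1 and triangles for S2 and filled symbols for called probes. The top row shows the 3 longest runs higher in panicle, with R03-00939F_C the highest point, and the lower row 3 runs lower in panicle, of which that of R08 ends at R08-00157F and R08-00164F with probes that were not called.

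The levels of NB shoot and callus, whose arrays are not in the contrast, showed where the called probes stood in other tissues of S1. RNA of shoot was extracted with another reagent per the study's methods. Shoot came from seedlings in greenhouse pots, older than the root seedlings per the methods but of the same age per the labels. By the labels callus grew for longer than root, under constant light and at a higher temperature. Tissue, age and growth conditions therefore cannot be told apart in these values either. Among the 2831 probes higher in panicle the median level was 12.61 in panicle, 9.97 in root, 10.88 in shoot and 10.43 in callus. The shoot mean was nearer to panicle than to root at 1078 of them (38.1%), the callus mean at 847 (29.9%), both were nearer to panicle at 290 (10.2%), and both were nearer to root at 1196 (42.2%). Among the 2214 probes lower in panicle the median was 9.52 in panicle, 12.46 in root, 9.71 in shoot and 10.19 in callus. Here shoot was nearer to panicle at 1781 (80.4%), callus at 1609 (72.7%) and both at 1312 (59.3%). For comparison, over all tested probes shoot was nearer to panicle at 43.6%, callus at 48.7% and both at 23.3%, and both were nearer to root at 31.1%.

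In the same fit, shoot minus callus called 14.8% of the tested probes higher and 18.1% lower in shoot. Both contrasts use the same estimate of spread for each probe. A probe with a small spread is therefore more readily called in both, and the shares below are not independent of the panicle and root calls. Of the probes higher in panicle, 1005 (35.5%) were called higher and 628 (22.2%) lower in shoot than in callus. Of those lower in panicle, 373 (16.8%) were called higher and 649 (29.3%) lower in shoot. The median shoot minus callus difference was 0.42 on the log2 scale for the probes higher in panicle and -0.08 for those lower in panicle, against 0.09 over all tested probes.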

How the data were processed

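Per the file headers, the authors ran Agilent Feature Extraction 8.1.1.1 on each scan (the submitters' processing notes name version 7.5). In the deposited processed signal intensity the background had been subtracted and the dyes balanced within each array, with no step between arrays. Unbalanced and mean signal intensity per channel were deposited too, as were flags per spot, with detection at p 0.01 and 2.6 SD of the background per the file headers. The deposited series-wide tables hold the dye ratio and were not used.

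Here the signals of the non-control probes were scaled to a median of 1000 per array and channel and capped at 100000, as in the study's methods. The log2 values of both channels were averaged, spots marked as outliers were dropped and saturated ones kept. Probes detected on every array of at least 1 group entered limma 3.58.1 in R 4.3.3 (lmFit, eBayes, two-sided). The 5 groups of a design were fitted together, with Benjamini-Hochberg adjustment over all tested probes. These groups were panicle, root, shoot and callus of NB and shoot of IR64. Arrays of another variety thus entered the estimate of the spread, and detection in IR64 shoot alone could admit a probe. The script was tested on simulated data. The number of arrays limits the precision.

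A fold is given as "at least" where no array of the dimmer organ had the probe well above background. The brighter organ's mean was then set against a floor, which is the lowest detected value of each array of the dimmer organ (or the level of the probe, if higher), averaged over those arrays.

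The members, lists and rules were chosen with earlier results of these data known. Probes were named by rule: the 10 largest differences in each direction among called S1 probes without overlap or saturation in the brighter organ, 1 per locus; the 5 largest in each direction among probes on both designs; the loci with calls in both directions; the longest runs of neighbouring called loci (4 runs tied at 4 loci, and all are given); the 3 nearest to 2-fold in each direction; and the 3 with the largest lower bound in each direction among probes detected in 1 organ. The S2 probes of named loci, the loci R04-00611R and R08-00157F to R08-00164F and the named 3'-end units next to others were added after their values were seen. So were the clones that the study lists for a missing domain. Lists of organ marker genes had no member that could be named. Probes of gene models are given by class. Python 3.11.15, numpy 2.4.6, pandas 2.3.3 and matplotlib 3.10.9 were used for the rest.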

Additional observations from a re-analysis of the deposited data

How the results depend on the processing

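Calls on S1 were counted under 16 other settings, and none of the 5045 main calls was called with the opposite sign in any of them (0 turned). Every setting reused the same panicle and root arrays, which did not overlap at any called probe. A turned sign was therefore unlikely from the outset. Scaling, normalization, channel, cap, filter and a 2-fold minimum gave 4794 (Cy3 only) to 6094 calls (normexp, loess and Aquantile), within 1.5 times the main count, and kept 91.9% to 99.8% of the main calls. The panicle and root arrays alone gave 5174 calls and kept 89.0%. With the replicate block 7324 probes were called, and all 5045 main calls were among them. The deviations of replicate 1 from replicate 2 correlated across probes between panicle and root (r = 0.64), and replicate number coincided with the scan session of these arrays. With scan date as a block there were 8543 calls. Leaving out 1 array gave 2961 to 3208 calls and kept 58.1% to 62.6% of the main ones. The lone array was then assumed to vary like the other groups.

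On S2 the count was 2312 with normexp, loess and Aquantile, 3966 with the replicate block, 2691 with scan date as a block, 0 on the panicle and root arrays alone, and 443 to 736 with 1 root array left out. The share of higher calls on S2 was 43.2% in the main fit and 53.6% with the replicate block. A fit without the S2 panicle array was not possible. The 75th percentile moved the median difference of all S1 probes to -0.13.

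Among probes on both designs, 113 were called on S1, against 310 with normexp, 173 with quantile normalization, 209 with scan date as a block and 56 to 65 without 1 array. The 3 loci with calls in both directions became 10 with the replicate block, 15 with scan date as a block and 1 to 3 without 1 array. The 19 runs of at least 3 loci became 39 with the replicate block, 54 with scan date as a block and 7 to 9 without 1 array. The cDNA-named probes were called 2.68 times as often as gene-model probes, and 1.49 times as often at a mean log2 level of 12 to 14. Detection without the step of 2.6 SD left 34 probes for panicle and 36 for root. Shoot minus callus gave 12146 calls and 16104 with the replicate block. The cause of these changes was not tested, beyond the fewer arrays where 1 was left out. Small differences of dim probes are limited by signal over background, and large ones of bright probes by the cap.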
